A study of Mus musculus with 8 samples.

Results

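The genes described here are 28 enzymes and carrier proteins of mitochondrial fatty acid oxidation and ketone body metabolism, taken from a fixed list of names, with every probe set that the array annotation pairs with one of them alone. Of these, 26 had at least 1 such probe set (46 probe sets in all), out of 12393 genes measured. Acsl1 and Acsl3, members of the acyl-CoA synthetase family, have no probe set paired with them in the annotation used here and were not analysed here. All 26 passed the filter on dim genes, which kept 9293 genes for the tests.

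RNA came from adipocytes differentiated in culture from stromal-vascular cells, the mixed non-fat cells of a fat depot, of inguinal white fat of male C57BL/6J mice, whose age the labels do not state. The cells expressed either sh-PRDM16, an shRNA named for the brown fat co-regulator PRDM16, or the control shRNA sh-scr, and were kept with or without 1 µM rosiglitazone, a thiazolidinedione agonist of the nuclear receptor PPARγ. The groups were treated sh-PRDM16, untreated sh-PRDM16, treated sh-scr and untreated sh-scr, with 2 Affymetrix mouse 430A_2 arrays each. The 2 arrays of a group are labelled as biological replicates, but separate cultures or mice are not named. A p-value here therefore covers the spread between arrays alone, which may be technical.

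Fatty acids are burned in the mitochondrial matrix. Acyl-CoA synthetases activate them, the carnitine shuttle carries the acyl group across the inner membrane, and a spiral of dehydrogenation, hydration, a second dehydrogenation and thiolysis shortens the chain by an acetyl-CoA unit per turn, while electrons from the first step pass through electron transfer flavoprotein to ubiquinone. Malonyl-CoA, the building block of fatty acid synthesis, blocks entry at the outer carnitine palmitoyltransferase. Thermogenic fat cells use this pathway as their main source of fuel for heat, and tissues outside the liver turn ketone bodies back into acetyl-CoA through Oxct1 and Acat1.

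Values are the deposited intensities, in arbitrary units on a linear scale. Array medians lay between 100.7 and 135.6. Replicate arrays correlated at 0.99 or above over the 20380 probe sets paired with 1 gene, which are not independent replicates. The highest correlation of each array with an array of another group was 0.982 to 0.983. The β-actin control probe sets differed most between the 3′ and 5′ ends in the treated sh-scr arrays (0.38 and 0.49 on the log2 scale, against 0.25 to 0.34 on the other arrays). The Gapdh control probe sets did not set these arrays apart. Their 3′ minus 5′ values were -0.346 and -0.354 in treated sh-scr and -0.354 and -0.326 in treated sh-PRDM16 arrays. In untreated arrays they were -0.404 and -0.445 for sh-PRDM16 and -0.412 and -0.433 for sh-scr. All 13 adipocyte markers measured, of 14 listed, were at 16 units or above in every group, and the summed level of 4 liver markers did not pass 74.3 units on any array. No probe set is paired with Prdm16 itself in the annotation, so the groups rest on their labels. Changes are differences of log2(intensity + 16) between group means, and a gene is said to rise or fall where its p from limma, adjusted by Benjamini-Hochberg over the 9293 genes, is under 0.05. Adding 16 understates the change of dim genes. Probe sets bind with different strength, so levels are compared between groups for a gene and not between genes.

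Rosiglitazone was followed by higher RNA of most of the pathway in both kinds of cells. In sh-PRDM16 cells 22 of the 26 genes rose and 0 fell. At an unadjusted p under 0.05 in limma, 22 of the 26 and 2558 of all 9293 genes changed in either direction. Among all genes in that comparison 10.2% rose and 3.35% fell, and the median change of the 26 was 1.09, against 0.003 for all genes. In sh-scr cells 17 rose and 1, Oxct1, fell. There 5.24% of all genes rose and 32.3% fell, and the median change was 0.68 for the 26 and -0.31 for all genes. Because the all-gene median was displaced in sh-scr cells, every comparison was also made with each array centred on its own median. On that scale 23 rose and 0 fell in sh-PRDM16 cells (background 15.0% and 9.62%), and 20 rose and 1 fell in sh-scr cells (background 14.7% and 11.3%). The genes gained by centring were Acsl5 in sh-PRDM16 cells and Acads, Echs1 and Acat1 in sh-scr cells. The sh-scr changes of Acsl5, Cpt1a, Acad9 and Bdh1, which passed on neither scale, were below 0 on the deposited scale and above 0 after centring.

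Leaving out 1 array kept 19 to 22 rises in sh-PRDM16 cells. Cpt1a, Acad9 and Acat1 did not pass without treated sh-PRDM16 replicate 2, with adjusted p up to 0.118 over the arrays left out. In sh-scr cells the count of rises was 11 without untreated sh-scr replicate 1, where Cpt2, Acadl, Acadm, Hadh, Etfa and Etfb no longer passed (adjusted p up to 0.163 for Etfb over the arrays left out). Acadm and Etfa also did not pass without treated sh-scr replicate 2, and Etfb did not pass whichever sh-scr array was left out. The fall of Oxct1 missed the threshold without untreated sh-scr replicate 2 (adjusted p = 0.0536). Crat, Acacb, Mlycd, Acadvl, Hadha, Hadhb, Acaa2, Eci1, Eci2, Decr1 and Etfdh, 11 genes, passed in sh-scr cells whichever array was left out.

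The sh-PRDM16 cells without drug had less of the same RNAs. Of the 26 genes 21 were lower and 0 higher than in untreated sh-scr cells, beside 15.7% of all genes lower and 1.98% higher. At an unadjusted p under 0.05 in limma, 23 of the 26 and 2926 of all 9293 genes differed in either direction. The median change was -0.72, against -0.16 over all genes, and the mean intensity in untreated sh-PRDM16 cells was a median of 60.6% of that in untreated sh-scr cells. On median-centred arrays 21 were lower and 2, Acsl4 and Bdh1, higher (background 12.5% and 9.51%). With rosiglitazone 8 genes were lower and 3 higher in sh-PRDM16 cells, beside 4.77% of all genes lower and 10.6% higher. The median change there was -0.29, against 0.15 over all genes, and the median intensity ratio was 81.25%. On median-centred arrays 19 were lower and 3 higher (background 12.2% and 12.8%). The 11 genes that only centring brought past the threshold, all lower in treated sh-PRDM16 cells, were Cpt2, Mlycd, Acadvl, Acads, Hadha, Hadhb, Eci1, Eci2, Etfa, Etfb and Etfdh. These comparisons and the rosiglitazone comparisons share arrays and are not independent of each other.

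The untreated comparison depended on which arrays were used. No shares of all genes are given for any fit that left out an array. A general loss of power in those fits therefore cannot be told from a trait of these genes. It gave 14 lower genes when untreated sh-PRDM16 replicate 2 was left out. Leaving out 1 of the untreated sh-scr arrays gave 18 lower genes (replicate 1) or 12 (replicate 2). Cpt2, Crat, Acacb, Acadl, Acadm, Acads, Echs1, Hadh, Acaa2, Eci1, Decr1 and Oxct1 were the 12 lower whichever array was left out. With rosiglitazone the count of lower genes was 3 without treated sh-scr replicate 2 or treated sh-PRDM16 replicate 1, and 5 without the other treated array of either kind. The count of higher genes was 1 without treated sh-scr replicate 2 or treated sh-PRDM16 replicate 2. Only Crat, Acacb, Acaa2 and Bdh1 passed in that comparison in all 8 fits that left out an array.

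Markers of cell types moved with the same comparisons. In untreated sh-PRDM16 cells 12 of 13 adipocyte markers were lower (median change -1.12). Their summed intensity was 50808 to 57998 units there, against 83742 to 86545 units in untreated sh-scr cells. With rosiglitazone 5 of 13 were lower, with sums of 75091 to 81681 units in treated sh-PRDM16 cells and 89070 to 93576 units in treated sh-scr cells. On median-centred arrays 9 of 13 were lower with rosiglitazone and 10 without it. The shares of all genes lower, as given above, were 4.77% with rosiglitazone and 15.7% without it on the deposited scale, and 12.2% and 12.5% after centring, in the same order. In these bulk cultures fewer adipocytes and less RNA per adipocyte cannot be told apart. Of 7 macrophage markers tested, 5 were lower in sh-PRDM16 cells without drug and 6 with it. The sum over the 8 measured was 857.1 to 907 units in treated and 1072 to 1193 units in untreated sh-PRDM16 cells, and 3085 to 3183 units in treated and 4837 to 5269 units in untreated sh-scr cells. Much of the sh-scr sums came from Lyz2, at 1724 and 1820 units in treated and 3148 and 3308 units in untreated sh-scr cells. In sh-PRDM16 cells Lyz2 read 121.3 and 138.7 units in treated and 234.2 and 235.8 units in untreated arrays. Csf1r overlapped between the treated groups, at 556.6 and 540.7 units in sh-PRDM16 and 600.3 and 460.1 units in sh-scr cells. Itgam was under 16 units in every group. In sh-scr cells 7 of 9 preadipocyte and fibroblast markers fell with rosiglitazone, with sums of 32659 to 34266 units in treated and 49843 to 50241 units in untreated cells. In sh-PRDM16 cells 2 of 9 fell, with sums of 38687 to 40111 units in treated and 43494 to 48933 units in untreated cells. On median-centred arrays 6 of the 9 fell in sh-PRDM16 and 5 in sh-scr cells. Beside these, 3.35% of all genes fell in sh-PRDM16 and 32.3% in sh-scr cells, or 9.62% and 11.3% after centring. Of 7 smooth muscle and pericyte markers, 4 fell in sh-PRDM16 and 5 in sh-scr cells (4 and 4 after centring). Of 5 endothelial markers tested, 2 fell in sh-PRDM16 and 3 in sh-scr cells (2 and 1 after centring). The part of these cell types in the changes of the oxidation enzymes was not tested.

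**Figure D1:**
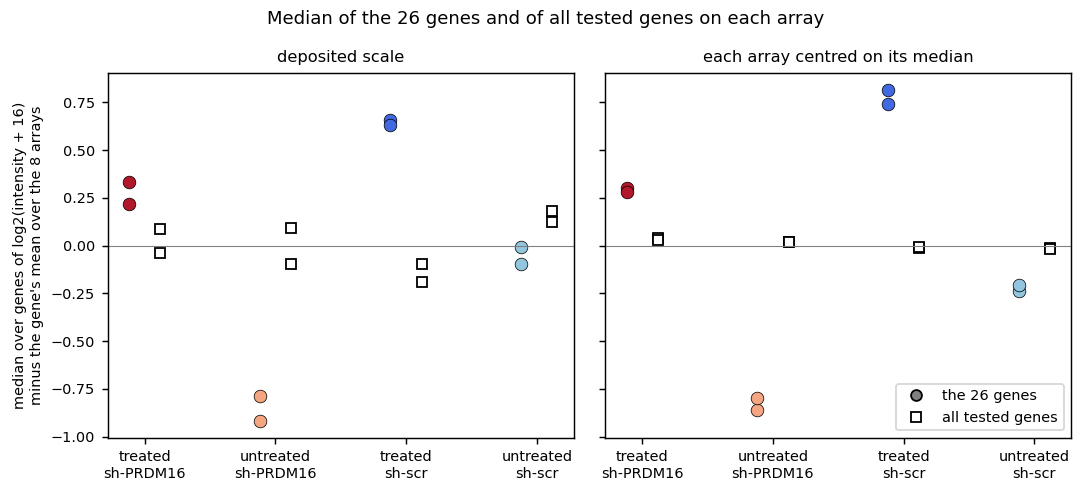
Median over the 26 genes (circles) and over all 9293 tested genes (squares) of log2(intensity + 16) relative to each gene's mean over the 8 arrays, for each array of the 4 groups, on the deposited scale (left) and with each array centred on its median (right). On the deposited scale the circles of treated sh-PRDM16 arrays lie at 0.22 and 0.34 and those of untreated sh-PRDM16 arrays at -0.79 and -0.92, and those of treated sh-scr arrays at 0.66 and 0.63 and of untreated sh-scr arrays at -0.10 and -0.006.

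Neither synthetase measured passed the test with rosiglitazone. Acsl4, which prefers arachidonic acid and other polyunsaturated fatty acids, read 1619 and 2063 units in treated and 2273 and 1726 in untreated sh-PRDM16 cells, and 1184 and 1200 in treated and 1659 and 1629 in untreated sh-scr cells. Its treated sh-scr arrays were the lowest of the 8, and the sh-PRDM16 arrays overlapped between treatments. With rosiglitazone it was higher in sh-PRDM16 than in sh-scr cells, by 0.61 (SE 0.17, adjusted p = 0.0416), a call lost without any 1 of 5 arrays, namely the 4 sh-scr arrays and treated sh-PRDM16 replicate 2 (adjusted p up to 0.235). This probe set missed the threshold when adjusted over all 15285 probe sets (adjusted p = 0.0589), while the other 2 probe sets of Acsl4 passed (0.67 and 0.80). In sh-scr cells its main probe set changed by -0.46 with the drug (adjusted p = 0.0588), and a second one fell by 0.54 (adjusted p = 0.0233 over probe sets). Acsl5, a long-chain synthetase, read 1210.5 and 1293 units in treated and 1103 and 963.8 in untreated sh-PRDM16 cells, and 1047 and 894.2 in treated and 1062 and 1093 in untreated sh-scr cells. It was the single gene of the 26 that passed in no comparison on the deposited scale.

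In the carnitine shuttle all 3 genes rose in sh-PRDM16 cells and 2 in sh-scr cells. Cpt1a, the outer carnitine palmitoyltransferase and the step that malonyl-CoA inhibits, read 1072 and 1207.5 units in treated and 760.9 and 690.5 in untreated sh-PRDM16 cells, and 823 and 678.5 in treated and 759.5 and 788.3 in untreated sh-scr cells. The treated sh-PRDM16 arrays were above the other 6, which overlapped. It rose by 0.64 in sh-PRDM16 cells (SE 0.14, adjusted p = 0.0184) and changed by -0.05 in sh-scr cells (adjusted p = 0.796), and with the drug it was higher in sh-PRDM16 cells by 0.60 (adjusted p = 0.0256), a call lost without treated sh-scr replicate 2 or either treated sh-PRDM16 array (adjusted p up to 0.181). The difference between the responses was 0.69 (SE 0.20) and did not pass (adjusted p = 0.131). Of its other probe sets, 1 fell by 1.00 in sh-scr cells (adjusted p = 0.0406 over probe sets), so the probe sets disagree on that response. Cpt2, the inner enzyme that returns the acyl group to CoA, read 1690 and 1991 units in treated and 751.2 and 777.5 in untreated sh-PRDM16 cells, and 2433 and 2308 in treated and 1388 and 1626 in untreated sh-scr cells. Its treated arrays stood above the untreated ones in both kinds of cells. It rose by 1.25 in sh-PRDM16 cells (adjusted p = 0.000483) and by 0.65 in sh-scr cells (adjusted p = 0.0101), while its dim second probe set, at 24.2 to 130.2 units, passed in neither. Cpt2 was lower in untreated sh-PRDM16 than in untreated sh-scr cells (-0.96, adjusted p = 0.00214). Crat, which exchanges short acyl groups between CoA and carnitine, read 440.3 and 468.4 units in treated and 218.2 and 164.1 in untreated sh-PRDM16 cells, and 841 and 822.2 in treated and 374.3 and 353 in untreated sh-scr cells. No 2 of its groups overlapped. Its rise was 1.20 in sh-PRDM16 cells and 1.16 in sh-scr cells, with a difference of 0.04 (95% interval -0.44 to 0.51), and it was lower in sh-PRDM16 cells with the drug (-0.85, adjusted p = 0.00722) and without (-0.89, adjusted p = 0.00442). Its second probe set, at 35.8 to 108.1 units, also rose in both kinds of cells, but its differences between the cells were smaller and did not pass with the drug (-0.51, adjusted p = 0.102 over probe sets) or without it (-0.43, adjusted p = 0.162).

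The control of malonyl-CoA held the largest change of the set. Acacb is the mitochondria-associated acetyl-CoA carboxylase that makes malonyl-CoA next to the outer carnitine palmitoyltransferase, and so restrains fatty acid entry. It read 125.9 and 157.4 units in treated and 3 and 3.5 in untreated sh-PRDM16 cells, and 349.6 and 341.6 in treated and 47.4 and 42.8 in untreated sh-scr cells. The 4 groups lay apart, and the untreated sh-PRDM16 arrays were near the floor of the table, whose lowest value is 0.1. Acacb rose by 3.03 in sh-PRDM16 cells (SE 0.14, adjusted p = 3.81e-06) and by 2.57 in sh-scr cells (SE 0.14, adjusted p = 9.88e-06). Between the cells it was lower in sh-PRDM16 with the drug (-1.21, adjusted p = 0.00101) and without it (-1.67, adjusted p = 0.000138). With the untreated sh-PRDM16 arrays so near the floor, changes against them are understated. Mlycd, the decarboxylase that removes malonyl-CoA, read 352.4 and 408.1 units in treated and 127.9 and 124.1 in untreated sh-PRDM16 cells, and 492.3 and 428.1 in treated and 194.8 and 199.2 in untreated sh-scr cells. The maker and the remover of malonyl-CoA thus both rose, Mlycd by 1.48 in sh-PRDM16 and 1.16 in sh-scr cells (adjusted p = 0.000145 and 0.000734). Mlycd was lower without the drug (-0.59, adjusted p = 0.0179) but did not pass without untreated sh-scr replicate 1 or 2 or without untreated sh-PRDM16 replicate 2 (adjusted p up to 0.116).

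The acyl-CoA dehydrogenases, which take the first pair of hydrogens from the chain and differ in the chain length they prefer, rose as a group in sh-PRDM16 cells (5 of 5) and in part in sh-scr cells (3 of 5). Acadvl, the very long-chain enzyme, read 3246 and 3509 units in treated and 1338 and 1191 in untreated sh-PRDM16 cells, and 4473 and 4347 in treated and 1822 and 2039 in untreated sh-scr cells. Acadl, the long-chain enzyme, read 4042 and 4583 units in treated and 2218 and 1909.8 in untreated sh-PRDM16 cells, and 6807 and 6968 in treated and 4145 and 4455 in untreated sh-scr cells. Acadm, the medium-chain enzyme, read 3736 and 4375 units in treated and 2127 and 1791 in untreated sh-PRDM16 cells, and 6473 and 6668 in treated and 3974 and 4322 in untreated sh-scr cells. In Acadl and Acadm the treated sh-PRDM16 arrays overlapped the untreated sh-scr arrays, while in Acadvl they stood above them. Acadvl rose by 1.41 in sh-PRDM16 and 1.19 in sh-scr cells (adjusted p = 0.000176 and 0.000656), Acadl by 1.06 and 0.68 (adjusted p = 0.00102 and 0.00787) and Acadm by 1.04 and 0.66 (adjusted p = 0.00149 and 0.0102), in the same order. Acadl and Acadm were lower in sh-PRDM16 cells with the drug (-0.68 and -0.70, adjusted p = 0.0137 and 0.0149) and without it (-1.06 and -1.08), and the first of these calls was lost for both without treated sh-scr replicate 2 or treated sh-PRDM16 replicate 1 (adjusted p up to 0.0822). Acads, the short-chain enzyme, read 930.6 and 997.9 units in treated and 487.2 and 461.7 in untreated sh-PRDM16 cells, and 1153 and 1094 in treated and 795 and 954.6 in untreated sh-scr cells. It rose by 1.00 in sh-PRDM16 cells (adjusted p = 0.00141), and its sh-scr change of 0.36 did not pass (adjusted p = 0.0631) although the arrays did not overlap. Acad9, known also as an assembly factor of respiratory complex I, read 612.8 and 665.4 units in treated and 418.8 and 336.9 in untreated sh-PRDM16 cells, and 602.7 and 483.4 in treated and 509.4 and 606.9 in untreated sh-scr cells. It rose in sh-PRDM16 cells (0.74, adjusted p = 0.0189), and its sh-scr arrays overlapped. The rise was lost without untreated sh-PRDM16 replicate 2 or either treated sh-PRDM16 array (adjusted p up to 0.0998), and the second probe set of Acad9, at 164.9 to 247.5 units, changed by 0.11 (adjusted p = 0.786 over probe sets).

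Hadha and Hadhb encode the α and β subunits of the mitochondrial trifunctional protein, which carries out the last 3 steps on long chains. Hadha read 2200.4 and 2503 units in treated and 921.3 and 759.7 in untreated sh-PRDM16 cells, and 2927 and 3004 in treated and 1298 and 1387 in untreated sh-scr cells. Hadhb read 6989 and 7485 units in treated and 2500.1 and 2297 in untreated sh-PRDM16 cells, and 9465 and 9545 in treated and 3681 and 4481 in untreated sh-scr cells. The groups came in the same order for both subunits, with treated sh-scr highest and untreated sh-PRDM16 lowest. On the probe sets that stand for the 2 genes the rises were close to each other, 1.47 for Hadha and 1.59 for Hadhb in sh-PRDM16 cells (adjusted p = 0.000202 and 0.000113) and 1.13 and 1.22 in sh-scr cells (adjusted p = 0.00111 and 0.000712). Both were lower in untreated sh-PRDM16 cells (-0.67 and -0.76, adjusted p = 0.0123 and 0.00649), calls that were lost without untreated sh-scr replicate 2 and, for Hadha, without untreated sh-PRDM16 replicate 2 (adjusted p up to 0.0938). A second Hadhb probe set, at 2298 to 7788 units, rose by 1.335 in sh-PRDM16 cells (adjusted p = 0.00193 over probe sets). In sh-scr cells it rose by only 0.64 (adjusted p = 0.0289), so the Hadhb probe sets disagree on the size of that rise. It was also lower in untreated sh-PRDM16 cells (-0.80, adjusted p = 0.0201). In RefSeq (GRCm38.p6) Hadha and Hadhb lie head to head on chromosome 5, Hadha on the minus strand and Hadhb on the plus strand, with start sites 273 bases apart. The 250 bases before the start of Hadhb are shown 5′ to 3′ as the stretch that the 2 genes share, with the 228 bases that also fall in the Hadha promoter window in capitals.
Hadhb, chr5:30155003-30155252 (+): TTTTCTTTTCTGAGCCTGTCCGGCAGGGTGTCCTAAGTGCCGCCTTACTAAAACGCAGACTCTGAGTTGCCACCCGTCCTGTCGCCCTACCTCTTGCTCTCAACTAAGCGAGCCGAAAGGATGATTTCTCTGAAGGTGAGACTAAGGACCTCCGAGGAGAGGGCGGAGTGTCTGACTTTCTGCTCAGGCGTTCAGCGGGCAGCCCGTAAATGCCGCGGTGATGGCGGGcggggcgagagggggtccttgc

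**Figure D2:**
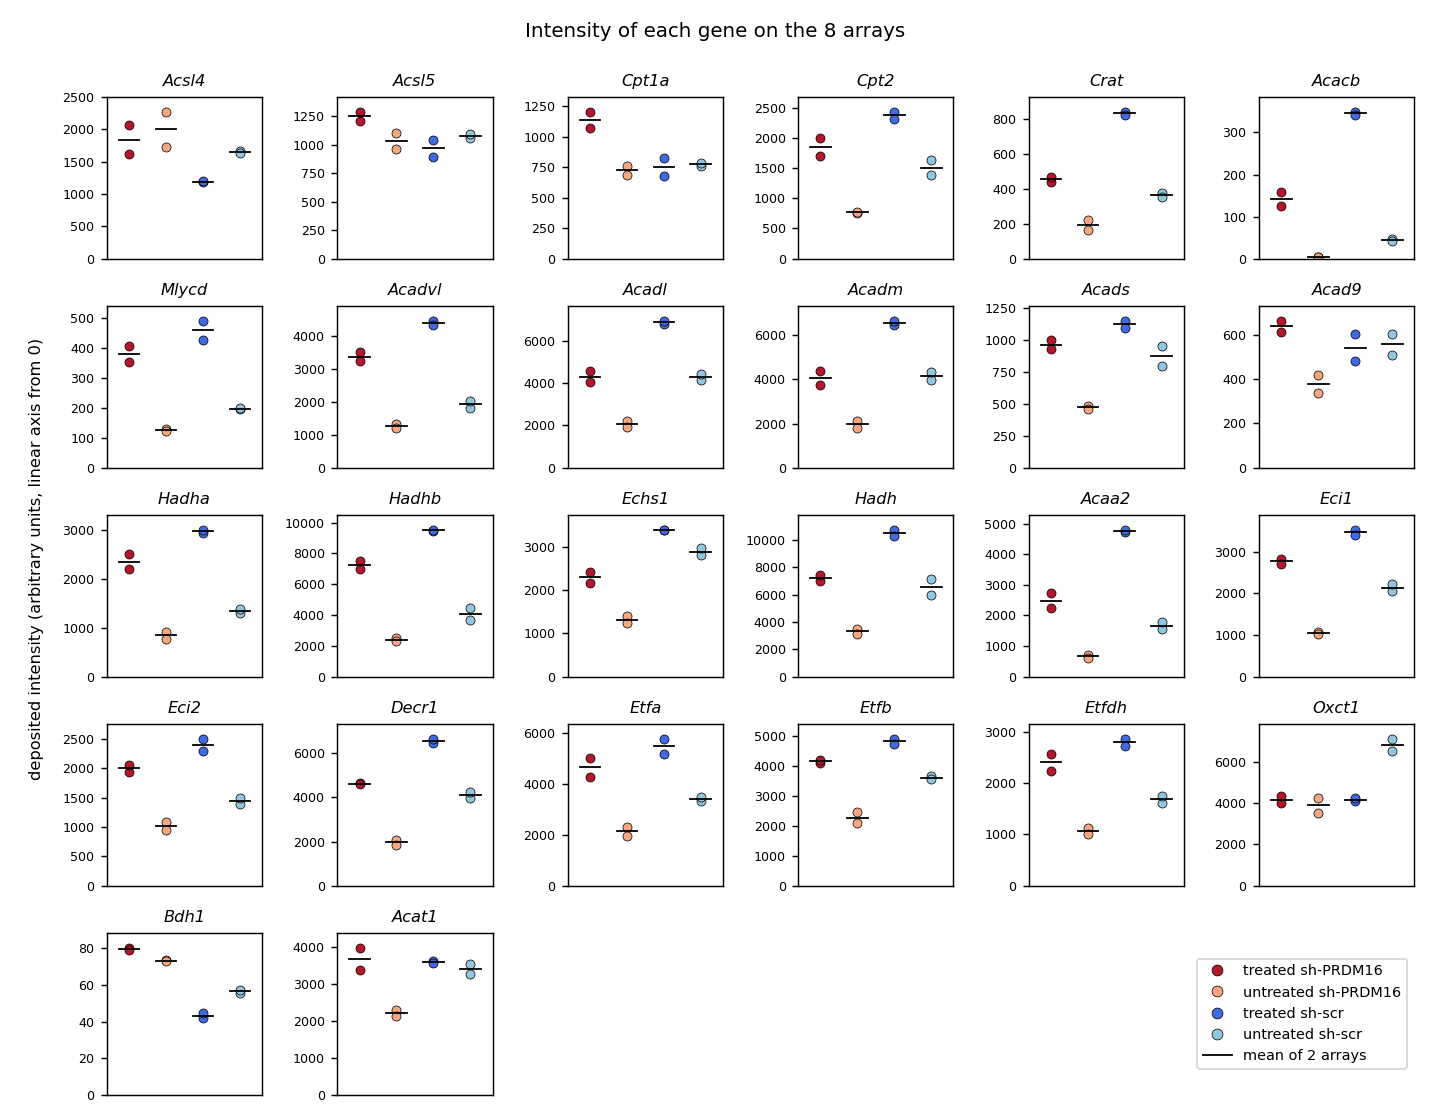
Deposited intensity (arbitrary units, linear axes from 0, a separate axis for each gene) of the 26 genes on the 8 arrays; points are arrays and lines are means of 2 arrays. In Hadhb, for example, the treated sh-PRDM16 arrays read 6989 and 7485 units and the untreated sh-PRDM16 arrays 2500.1 and 2297, and the treated sh-scr arrays read 9465 and 9545 and the untreated sh-scr arrays 3681 and 4481.

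Shorter chains are handled by separate enzymes. Echs1, the short-chain enoyl-CoA hydratase, read 2166 and 2419.9 units in treated and 1392.5 and 1234 in untreated sh-PRDM16 cells, and 3393 and 3375 in treated and 2798.5 and 2966 in untreated sh-scr cells. Even with rosiglitazone the sh-PRDM16 arrays stayed below the untreated sh-scr arrays. Echs1 rose in sh-PRDM16 cells (0.80, adjusted p = 0.00393), changed by 0.23 in sh-scr cells (adjusted p = 0.181), and was lower in sh-PRDM16 cells without the drug by the second largest step of this group (-1.13, adjusted p = 0.000658). Hadh, the short- and medium-chain hydroxyacyl-CoA dehydrogenase, read 6982 and 7485 units in treated and 3485 and 3159.9 in untreated sh-PRDM16 cells, and 10779 and 10289 in treated and 5994 and 7179 in untreated sh-scr cells. It rose by 1.12 in sh-PRDM16 and 0.68 in sh-scr cells (adjusted p = 0.000804 and 0.00821), and a dim 1 of its 3 probe sets, at 55.3 to 111.1 units, did not pass in either. Acaa2, the thiolase that releases acetyl-CoA, read 2239 and 2722.5 units in treated and 702.5 and 620.9 in untreated sh-PRDM16 cells, and 4713 and 4806 in treated and 1544 and 1794 in untreated sh-scr cells. After Acacb it had the largest change of the set in all 4 comparisons of 2 groups, with rises of 1.88 in sh-PRDM16 and 1.51 in sh-scr cells (adjusted p = 6.96e-05 and 0.000368) and lower levels in sh-PRDM16 cells with the drug (-0.94, adjusted p = 0.00453) and without (-1.31, adjusted p = 0.000581). Its 3 probe sets all passed in these 4 comparisons in the same direction. Echs1 and Hadh were also lower in sh-PRDM16 cells with the drug (-0.56 and -0.54, adjusted p = 0.0231 and 0.0317), but these calls were lost without any 1 of the 4 treated arrays (adjusted p up to 0.127).

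The auxiliary enzymes, which bring double bonds of unsaturated chains into a form the spiral can use, all rose in both kinds of cells (3 of 3). Eci1, an enoyl-CoA isomerase, read 2822.5 and 2709.6 units in treated and 1079 and 1019.9 in untreated sh-PRDM16 cells, and 3529.8 and 3390.4 in treated and 2058 and 2214 in untreated sh-scr cells. Its rise was 1.38 in sh-PRDM16 cells (log2 1.385, adjusted p = 0.000118) and 0.69 in sh-scr cells (adjusted p = 0.00512), and the difference of 0.69 between them did not pass (adjusted p = 0.0991). Eci2, the isomerase found in both mitochondria and peroxisomes, read 1936 and 2056 units in treated and 1091 and 940.6 in untreated sh-PRDM16 cells, and 2504 and 2287 in treated and 1385 and 1497 in untreated sh-scr cells. Decr1, the 2,4-dienoyl-CoA reductase, read 4646 and 4615 units in treated and 2081 and 1846 in untreated sh-PRDM16 cells, and 6493 and 6675 in treated and 3993 and 4245 in untreated sh-scr cells. In all 3 the untreated sh-PRDM16 arrays were the lowest. The differences without the drug were -1.01 for Eci1, -0.50 for Eci2 and -1.07 for Decr1 (log2 -1.065, adjusted p = 0.000769, 0.0334 and 0.000708 in that order), and that of Eci2 was lost without untreated sh-scr replicate 1 or 2 or untreated sh-PRDM16 replicate 2 (adjusted p up to 0.216). Decr1 was also lower with the drug (-0.51, adjusted p = 0.0292), a call lost without any of 6 arrays, namely each sh-scr array and each treated sh-PRDM16 array (adjusted p up to 0.155), and not made by its second probe set (-0.34, adjusted p = 0.168 over probe sets).

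Electron transfer flavoprotein takes electrons from all the acyl-CoA dehydrogenases, and its dehydrogenase hands them to ubiquinone. Etfa, the α subunit, read 4263 and 5019.6 units in treated and 2294 and 1966.5 in untreated sh-PRDM16 cells, and 5176 and 5775 in treated and 3329 and 3493 in untreated sh-scr cells. Etfb, the β subunit, read 4095 and 4198 units in treated and 2448 and 2085 in untreated sh-PRDM16 cells, and 4906 and 4733 in treated and 3648 and 3546 in untreated sh-scr cells. Etfdh, the dehydrogenase, read 2230.1 and 2566 units in treated and 1119 and 1012 in untreated sh-PRDM16 cells, and 2864 and 2714 in treated and 1617 and 1752 in untreated sh-scr cells. The order of the 4 groups was the same in all 3 genes, with no overlap between neighbouring groups. They rose by 0.87 to 1.16 in sh-PRDM16 cells and by 0.42 to 0.72 in sh-scr cells, the smallest rise in each being that of Etfb (adjusted p = 0.00244 and 0.0335). The call of Etfb in sh-scr cells was lost whichever sh-scr array was left out. Without the drug they were lower by nearly equal steps in sh-PRDM16 cells (-0.65 to -0.68, adjusted p = 0.00849 to 0.0126), all lost without untreated sh-scr replicate 2 (adjusted p up to 0.097). With the drug the differences were -0.22 to -0.24 and none of the 3 passed. An unadjusted p under 0.05 in limma was reached by 0 of the 3, beside 3163 of all 9293 genes. On median-centred arrays all 3 passed the adjusted threshold, at -0.34 to -0.36.

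Of the 3 ketone body enzymes, 1 rose in sh-PRDM16 cells and 1 fell in sh-scr cells. Oxct1, the succinyl-CoA transferase that lets tissues outside the liver use ketone bodies, read 3987 and 4343 units in treated and 4248 and 3515 in untreated sh-PRDM16 cells, and 4106 and 4224 in treated and 6510 and 7115 in untreated sh-scr cells. The untreated sh-scr arrays stood above the other 6, which overlapped. Oxct1 was the 1 gene of the 26 that fell with rosiglitazone, in sh-scr cells (-0.71, SE 0.14, adjusted p = 0.00752, and -0.40 on median-centred arrays), and it changed by 0.11 in sh-PRDM16 cells (adjusted p = 0.69). It was lower in sh-PRDM16 cells without the drug (-0.81, adjusted p = 0.00485), and with it the difference was -0.001 (SE 0.14). Of its 4 probe sets, 3 fell with the drug in sh-scr cells and 3 were lower in untreated sh-PRDM16 cells. Bdh1, which interconverts the 2 main ketone bodies, read 80.5 and 79.1 units in treated and 73.5 and 73.3 in untreated sh-PRDM16 cells, and 42.2 and 44.4 in treated and 55.6 and 57.3 in untreated sh-scr cells. These are dim signals, and its second probe set stayed at or under 10 units. The treated arrays lay above the untreated ones in sh-PRDM16 cells and below them in sh-scr cells, but neither change passed (0.10 and -0.29, adjusted p = 0.653 and 0.0806), and the difference of the responses was 0.39 (adjusted p = 0.19). Bdh1 was higher in sh-PRDM16 than in sh-scr cells with the drug (0.69, adjusted p = 0.00641). Acat1, the mitochondrial acetoacetyl-CoA thiolase, read 3364 and 3980.4 units in treated and 2288.5 and 2127 in untreated sh-PRDM16 cells, and 3628 and 3566 in treated and 3277 and 3539 in untreated sh-scr cells. It rose in sh-PRDM16 cells (0.73, adjusted p = 0.00769), changed by 0.08 in sh-scr cells (adjusted p = 0.657), and was lower without the drug (-0.62, adjusted p = 0.0135), a call lost without untreated sh-scr replicate 2 or untreated sh-PRDM16 replicate 2 (adjusted p up to 0.114).

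Across roles, 7 genes passed in all 4 comparisons of 2 groups, higher with rosiglitazone in both kinds of cells and lower in sh-PRDM16 cells at both treatments. They were Crat, Acacb, Acadl, Acadm, Hadh, Acaa2 and Decr1. A further 10 differed from these in having no call in the treated comparison of the cells, and comprised Cpt2, Mlycd, Acadvl, Hadha, Hadhb, Eci1, Eci2, Etfa, Etfb and Etfdh. The remaining 9 had other combinations. How many of all genes show these patterns was not counted, and the 4 comparisons share arrays, so the patterns are a description only. With 46 probe sets in place of 26 genes, 44 passed the filter, of which 30 rose in sh-PRDM16 cells and 23 rose and 5 fell in sh-scr cells. The shares over all 15285 probe sets tested are not given here.

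The treated sh-PRDM16 arrays were also set beside the untreated sh-scr arrays, a comparison chosen after seeing the data and described with no test. For 18 of the 26 genes both treated sh-PRDM16 arrays lay above both untreated sh-scr arrays, beside 19.0% of all genes, and for 2, Echs1 and Oxct1, both lay below, beside 45.8% of all genes. For Acsl4, Acadl, Acadm, Acads, Hadh and Acat1, 6 genes, the arrays overlapped.

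Whether the response to rosiglitazone itself differed between the cells was tested as the sh-PRDM16 change minus the sh-scr change. None of the 26 passed in limma in either direction (0 higher and 0 lower), beside 0.678% of all genes higher and 0.0753% lower. At an unadjusted p under 0.05, 13 of the 26 and 2376 of all 9293 genes differed in either direction. Every one of the 26 estimates was above 0, from 0.04 for Crat to 0.81 for Oxct1 (95% interval 0.37 to 1.26, adjusted p = 0.0935), with a median of 0.44, but the median over all 9293 genes was itself 0.33. On median-centred arrays the estimates ran from -0.28 to 0.50 with a median of 0.12. There 0 passed, beside 0.0108% of all genes higher and 0.0430% lower. An unadjusted p under 0.05 was reached by 7 of the 26 and 1263 of all 9293 genes. The call depended on the filter and the pseudocount. With the dimmer 50% of genes left out, 9 of 24 genes had a larger response in sh-PRDM16 cells (Cpt1a, Cpt2, Acads, Acad9, Echs1, Eci1, Decr1, Oxct1 and Acat1), where 16.7% of all genes passed in either direction. With 64 in place of 16 added, 6 passed (Cpt1a, Acads, Acad9, Eci1, Oxct1 and Acat1), where 8.41% of all genes did, and with 1 added, 1 passed (Acacb), where 0.14% did.

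**Figure D3:**
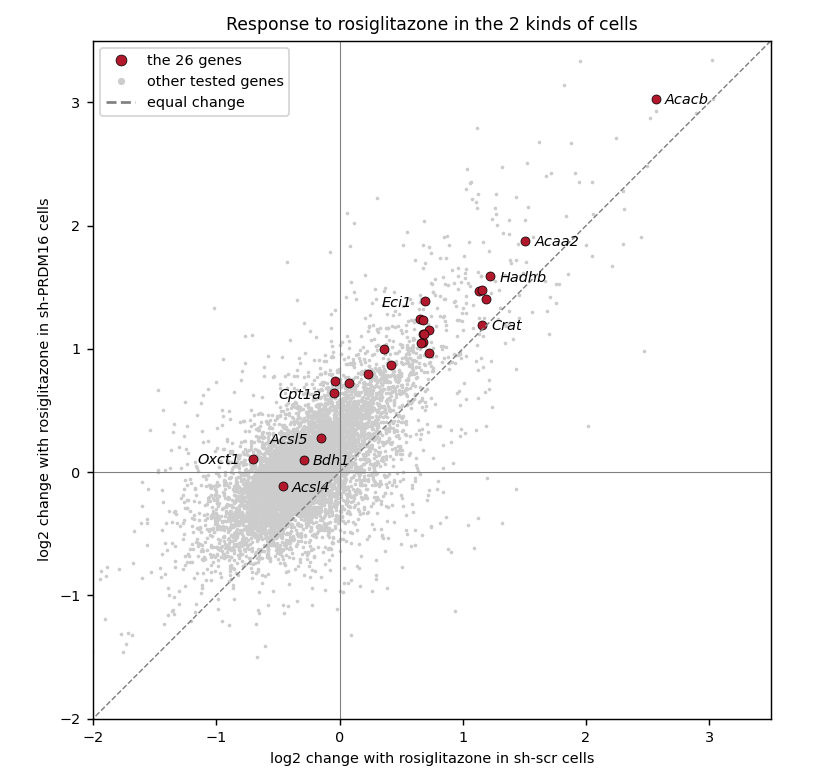
Log2 change with rosiglitazone in sh-scr cells (horizontal) against that in sh-PRDM16 cells (vertical) for the 26 genes (red) and the other tested genes (grey), of which 25 lie outside the axes; the dashed line marks equal change. All 26 red points lie above the dashed line, by 0.04 (Crat) to 0.81 (Oxct1), in a cloud whose median lies 0.33 above it.

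Other genes of the same metabolism, taken from lists, were counted in the same fits. The shares of all genes to read them against were 10.2% rising in sh-PRDM16 cells, and 5.24% rising and 32.3% falling in sh-scr cells, or 15.0%, 14.7% and 11.3% on median-centred arrays in that order. Of 10 further genes of entry and transport tested (14 listed), 5 rose in sh-PRDM16 cells and 4 rose and 2 fell in sh-scr cells (5, and 5 and 1, on median-centred arrays). Slc25a20, the carrier that moves acylcarnitines across the inner membrane, rose by 1.59 in sh-PRDM16 and 1.15 in sh-scr cells. Fabp3, a cytosolic fatty acid carrier abundant in brown fat, rose by 2.93 in sh-PRDM16 and 2.56 in sh-scr cells (log2 2.565). Of 18 other mitochondrial acyl-CoA enzymes, 6 rose in sh-PRDM16 cells and 2 rose and 3 fell in sh-scr cells. On median-centred arrays 11 rose and 1 fell in sh-PRDM16 cells and 6 rose and 2 fell in sh-scr cells. That list holds enzymes of branched-chain amino acid breakdown, and its medians, 0.52 in sh-PRDM16 and -0.11 in sh-scr cells, were below the 1.09 and 0.68 of the 26 genes (log2 -0.105 for the second), and centring moved the median of the list in sh-scr cells to 0.20 and that of the 26 genes to 0.98. Without the drug 12 of the 18 were lower in sh-PRDM16 cells on either scale, beside 15.7% of all genes on the deposited scale. They include Nudt7 (-1.65), which is known as a peroxisomal CoA diphosphatase in spite of the name of the list, and Pcca (-1.36), a subunit of mitochondrial propionyl-CoA carboxylase. Of 2 further ketone genes tested (8 listed), Slc16a1, a transporter of lactate and ketone bodies, rose in both, by 0.98 in sh-PRDM16 and 0.59 in sh-scr cells (log2 0.595), and Aacs, which feeds ketone bodies into lipid synthesis, was lower in untreated sh-PRDM16 cells (-1.24). The fall of Aacs in sh-scr cells on the deposited scale (-0.58, adjusted p = 0.0228) did not pass on median-centred arrays (-0.27, adjusted p = 0.167).

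Peroxisomes shorten very long chains before they reach mitochondria. Of 18 peroxisomal genes tested (21 listed), 11 rose in sh-PRDM16 cells, 8 rose and 1 fell in sh-scr cells, and 12 were lower in untreated sh-PRDM16 cells. On median-centred arrays 13 rose in each kind of cells and 11 were lower in untreated sh-PRDM16 cells. Acaa1b had the largest rise of the list in both kinds of cells, by 5.66 in sh-PRDM16 and 4.50 in sh-scr cells. Ehhadh, the peroxisomal bifunctional enzyme, rose by 2.91 in sh-PRDM16 and 2.89 in sh-scr cells and was lower in sh-PRDM16 cells with the drug (-2.21) and without (-2.24). In the difference of the responses Abcd2 (1.39, adjusted p = 0.0334) and Acot3 of this list passed on the deposited scale. Acot3 read 2.7 and 3.3 units in untreated sh-PRDM16 and 29.6 and 7.4 units in untreated sh-scr cells, near the floor, so the size of its difference depends on the 16 units added and is not given. Of the list 0 passed on median-centred arrays. An unadjusted p under 0.05 was reached there by 5 of the 18, beside 1263 of all 9293 genes. Among 16 regulators tested (20 listed), 10 rose in sh-PRDM16 cells and 7 rose and 1 fell in sh-scr cells (11, and 9 and 1, on median-centred arrays). Pdk4, the kinase that turns off pyruvate oxidation, rose by 3.48 in sh-PRDM16 and 3.51 in sh-scr cells. Ppargc1a, a co-activator of mitochondrial genes, was lower in sh-PRDM16 cells with the drug (-1.47) and without it (-1.27). The 6 brown adipocyte markers, which include Ucp1, all rose in sh-scr cells and 4 rose in sh-PRDM16 cells, with sums of 3725 to 4372 units in treated sh-PRDM16 and 9187 to 9701 units in treated sh-scr cells. Much of these sums came from Elovl3, at 2925 and 3397.5 units in treated sh-PRDM16 and 4862 and 4855 units in treated sh-scr cells. Ucp1 read 81.9 and 101 units against 1295.5 and 1322 units, in the same order. With the drug all 6 were lower in sh-PRDM16 cells (median change -2.61), beside 4.77% of all genes. In the difference of the responses 2 were lower and 1 higher (2 and 0 on median-centred arrays), beside 0.0753% and 0.678% of all genes.

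The promoter windows of the genes with a probe set were searched for motifs of PPARγ and related factors. Windows of 300 bases (250 before to 50 after the start, RefSeq, GRCm38.p6) were found for 21 of these 26 genes, and motifs were read on both strands. Acsl1 and Acsl3 were not part of the search. The nuclear receptor half-site AGGTCA was in 5 of the 21 (23.8%, against 16.3% of all 32851 windows), namely Cpt1a, Acacb, Acadvl, Acadm and Echs1. The direct repeat AGGTCANAGGTCA, the form bound by PPAR with RXR, was found with up to 2 mismatches in Echs1 and Etfa (9.52%, against 3.86% of all windows), and the Echs1 match overlaps its half-site. The estrogen-related receptor element TCAAGGTCA, which contains the half-site, was in 0 of the 21 (0.423% of all windows), and the NRF1 palindrome GCGCATGCGC was in Etfdh alone (4.76%, against 0.971%). The 21 are counted as genes, each with a match in any of its windows, while the background is counted by window, so the percentages differ in unit. These counts are a description of the letters in short windows. The 250 bases before the start of 3 genes that rose in both kinds of cells are shown 5′ to 3′ on the gene's strand as examples of each match, with the match in capitals. In Etfa it is read on the opposite strand as AGGGCAAAGGTAA.
Acadvl, chr11:70015429-70015678 (-): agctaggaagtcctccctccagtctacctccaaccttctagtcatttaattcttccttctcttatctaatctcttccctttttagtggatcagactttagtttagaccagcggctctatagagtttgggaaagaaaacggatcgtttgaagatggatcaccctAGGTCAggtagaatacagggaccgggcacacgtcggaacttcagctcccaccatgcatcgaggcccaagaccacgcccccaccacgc
Etfa, chr9:55512244-55512493 (-): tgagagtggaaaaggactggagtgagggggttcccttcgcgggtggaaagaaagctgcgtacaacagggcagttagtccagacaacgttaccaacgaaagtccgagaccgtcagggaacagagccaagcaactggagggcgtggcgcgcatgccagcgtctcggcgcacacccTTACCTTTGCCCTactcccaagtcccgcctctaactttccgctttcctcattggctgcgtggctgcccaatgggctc
Etfdh, chr3:79628768-79629017 (-): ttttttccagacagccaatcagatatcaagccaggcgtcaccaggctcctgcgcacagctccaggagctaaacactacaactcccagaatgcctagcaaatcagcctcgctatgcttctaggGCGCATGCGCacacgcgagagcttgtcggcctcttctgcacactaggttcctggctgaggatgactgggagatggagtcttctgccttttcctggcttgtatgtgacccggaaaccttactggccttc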

How the data were processed

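The authors deposited a table of intensity values for 22690 probe sets on 8 arrays, linear and from 0.1 to 22736.2. Per the labels' protocols, Trizol RNA was copied with an oligo-dT primer and transcribed into biotin-labelled cRNA. How the values were summarised and scaled is not stated in the labels or the file. Depth does not apply to arrays: their number limits the precision (median SE 0.15 on the log2 scale).

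Groups came from the titles. Probe sets with 1 gene in the platform annotation were used (20380), the one with the highest mean standing for its gene, and the dimmest 25% of 12393 genes were left out. The deposited intensities were transformed to log2(intensity + 16) and fitted with limma 3.58.1 (R 4.3.3), a mean per group over all 8 arrays, with 4 residual degrees of freedom, two-sided. The deposited scale was kept because no 2 array medians were more than 0.378 apart on the log2 scale (limit 0.5). Alternatives were 2 scalings, 2 filters, 2 pseudocounts, other uses of probe sets, a replicate block and leaving out each array. The fit was tested on simulated data. The genes and lists were chosen with earlier results of these data known. By rule, values by array were given for genes that passed in a comparison of the cells and for the 3 largest and 3 smallest responses to the drug. Acsl5, outside this rule, was added after its values were seen, and for other lists up to 3 of the largest changes were named.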

Additional observations from a re-analysis of the deposited data

How the results depend on the processing

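Each count was recomputed under 9 other settings and 8 fits that left out 1 array, and no gene reversed its direction where it was called. In sh-scr cells with rosiglitazone 2 genes fell, in place of 1, with the lower 50% of genes left out, with the mean of a gene's probe sets, and with a pseudocount of 1 or 64. In untreated cells 2 genes were higher with sh-PRDM16 after median centring and after quantile normalization, in place of 0. In treated cells 19 were lower after either scaling and 5 with the mean of probe sets, in place of 8, and 1 was higher with no filter, in place of 3. The difference of the responses called 9 genes with the lower 50% left out, 6 with a pseudocount of 64 and 1 with a pseudocount of 1, in place of 0. The cause was not tested. Leaving out 1 array gave 11 to 17 rises and 0 to 2 falls in sh-scr cells, 19 to 22 rises in sh-PRDM16 cells, 12 to 22 lower genes in untreated cells, and 3 to 8 lower and 1 to 3 higher genes in treated cells, where the lone array of a group was assumed to vary like the others. Differences between replicates correlated at -0.018 to 0.055 between groups. With 1 pair of arrays in each group, this cannot decide whether arrays of equal replicate number belong together. With a replicate block 16 genes rose in sh-scr and 22 in sh-PRDM16 cells. In that fit 20 were lower in untreated and 8 in treated sh-PRDM16 cells, and 0 differed in response. Apart from median centring and the calls named in the difference of the responses, no shares of all genes are given for these settings. A shift over all genes therefore cannot be told there from a trait of these genes. No detection calls were used, so dim genes such as Bdh1 and Acacb in untreated sh-PRDM16 cells cannot be called undetected.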
